A study of Mus musculus with 8 samples.

Results

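The kinesin superfamily was described in mouse embryonic stem cells (ESC) and in neural progenitor cells (NPC) made from them. Members were all genes whose symbol begins with Kif and a digit, with Kifc1 to Kifc3, or is Klc1 to Klc4. This gave 45 genes of 21202 named in either table, 44 of them in the exon table and 43 in the intron table. By textbook role, 12 were classed as mitotic kinesins, 15 as cargo transport kinesins, 4 as kinesin light chains and 6 as kinesins of the cilium or the hedgehog pathway. Another 7 were classed as other, among them the pseudogene Kif4-ps, and Kif1bp encodes a protein that binds kinesins and is no motor. Kif17 was measured on introns only, and Kif2b and Kif4-ps on exons only. Kifc1 was not analysed here.

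The ESC line was F1-21.6, a hybrid with a 129Sv-Cast/EiJ background, grown on mitomycin C-inactivated fibroblast feeders with serum, b-mercaptoethanol and leukaemia inhibitory factor. NPC were 1 clone differentiated from that line, so both groups share the hybrid background and the NPC values stand for a single clone. Each group had 2 biological replicates with 2 technical libraries each, made from total RNA after removal of ribosomal RNA. Such libraries hold spliced transcripts, read as exon values, and unspliced ones, read as intron values.

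Kinesins are motor proteins that turn ATP hydrolysis into steps along microtubules. One set builds the spindle, moves chromosomes and completes the division of the cell, and its genes are transcribed mainly towards the end of the cell cycle. Another set carries vesicles, organelles and RNA through the cytoplasm, in neural cells over long processes, often with light chains or adaptor proteins that hold the cargo. Further members work in the primary cilium, the antenna through which neural progenitors receive hedgehog signals.

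Exon levels below are RPKM (reads scaled to gene length and to library size), pooled per cell type by the authors, and are given in the order ESC then NPC. They carry no replicate spread. Intron values are RPKM per biological replicate, and each tested intron value of a mitotic member rested on 119 to 2980 reads. The labelled cell types carried their markers: all 8 pluripotency markers were lower and all 8 neural progenitor markers higher in NPC exons. Fibroblast markers summed to 31.9 RPKM in ESC and 9.91 in NPC over 8 genes, and neuronal markers to 284 and 23.2 over 9, none of them at 0. NPC replicate 1, whose values combine 2 technical libraries, stood apart on introns. Genes for olfactory, vomeronasal and taste receptors, which neither cell type is known to use, had a median of 0.0295 and 0 intron RPKM in ESC replicates 1 and 2, 0.748 in NPC replicate 1 and 0.0829 in NPC replicate 2. For the exons of such genes the medians were 0 (ESC) and 0.279 RPKM (NPC). Over all 8811 genes tested on introns the median log2 fold change was -0.43, so intron changes of members are also given relative to that median.

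All 11 genes classed as mitotic kinesins and above 1 RPKM were lower in NPC exons. Kif2a, of the same subfamily as Kif2b and Kif2c, was classed as other and was not called (log2 fold change -0.37 in the authors' deposited table). Of all 12509 tested genes, 33.9% were called lower and 32.3% higher in the authors' deposited table, 66.2% in either direction, with a median log2 fold change of -0.07, against a median of -1.04 over these 11. Summed over the 12 mitotic members, the level was 1329 RPKM in ESC and 560 in NPC, a share of 71.8% and 38.5% of the summed RPKM of the motors and light chains. Bulk RNA cannot tell fewer dividing cells from less RNA per cell. Of the 9 S phase genes tested for comparison, all were called lower, with a median log2 fold change of -2.83 in the authors' deposited table. Their part in the result was not tested.

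**Figure D1:**
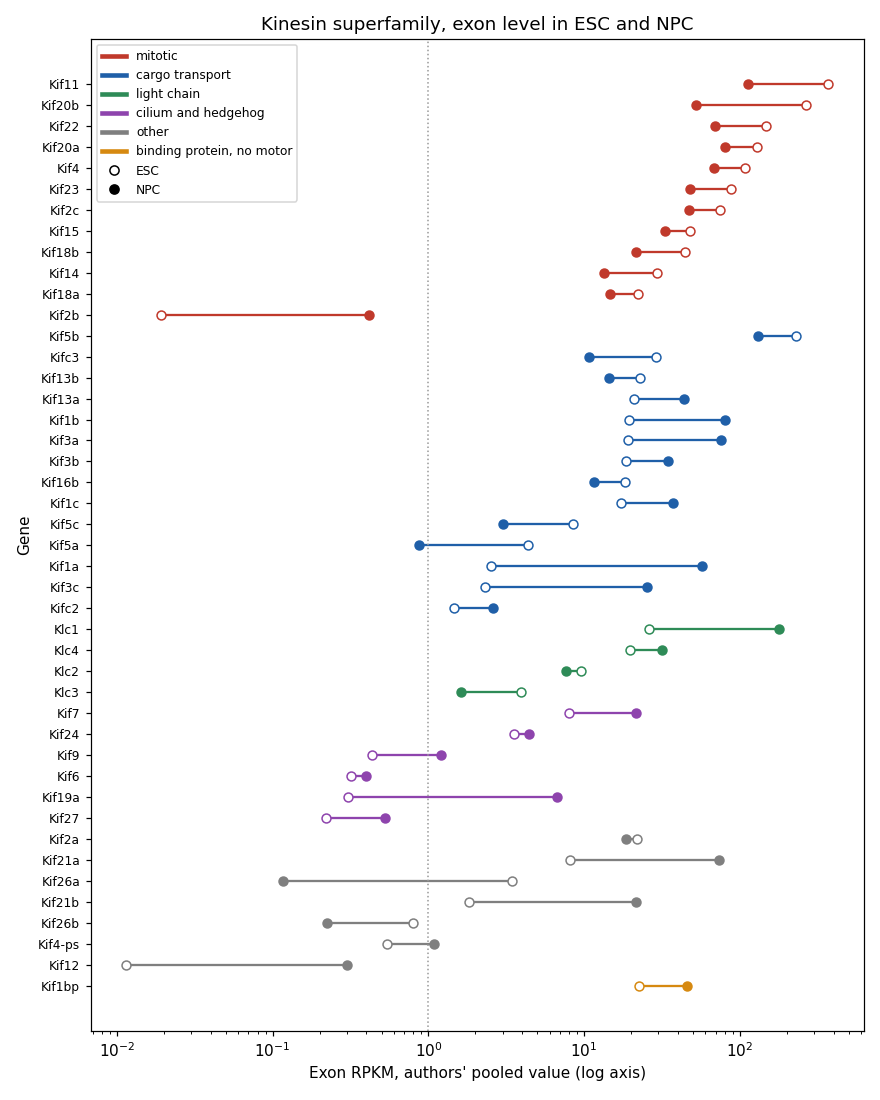
Exon RPKM pooled by the authors (log axis) of the 44 members in the exon table, by role, with open circles for ESC and filled circles for NPC and a dotted line at 1 RPKM. The 11 mitotic genes above the line all have the NPC circle on the left, while the cargo transport genes run both ways.

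Kif20b and Kif11 stood at the head of this group. Kif20b, a motor of late mitosis and cell separation, was at 267 and 52.0 RPKM, which is a 5.76-fold decrease by the log2 fold change of -2.53 in the authors' deposited table (adjusted p = 9.3e-31). Kif11, the motor that pushes spindle poles apart, was the most abundant kinesin in ESC, at 370 RPKM, and ranked 3 at 113 in NPC (log2 fold change -1.86, adjusted p = 4.5e-15 in the authors' deposited table). Their start sites lie on chromosome 19 at 34996848 and 37450893 of mm9.

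A middle group fell by about 1 log2 unit. Kif14, which acts in the separation of daughter cells, was at 29.6 and 13.5 RPKM (log2 fold change -1.27 in the authors' deposited table). Kif22, which binds chromosome arms, was at 148 and 69.1 (-1.23 in the authors' deposited table). Kif18b, which shortens microtubules beyond the spindle, was at 44.6 and 21.5 (-1.17 in the authors' deposited table). Kif23, the motor of the central spindle, was at 87.8 and 47.7 (-1.04 in the authors' deposited table). These 4 genes therefore kept between 0.414 and 0.485 of their ESC level by the authors' fold changes.

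The remaining mitotic genes fell less. Kif20a, which brings the chromosomal passenger complex to the central spindle, was at 129 and 80.5 RPKM. Kif4, a chromosome-bound motor encoded on the X chromosome, was at 108 and 67.8 RPKM. The reads of Kif4 could be shared with Kif4-ps, which was at 0.540 and 1.09 RPKM and had too low a mean to be tested. Cdc23 and Pdzd11 overlap Kif20a and Kif4 on the opposite strand in the annotation. Kif2c, which takes microtubules apart at centromeres, was at 74.3 and 47.3 RPKM. Kif18a, which aligns chromosomes, was at 22.3 and 14.7, and Kif15, another pole-separating motor, at 48.1 and 33.0. Their log2 fold changes in the authors' deposited table lay between -0.84 (Kif20a) and -0.68 (Kif15), with adjusted p = 0.0160 for Kif15 and 0.0123 for Kif18a. Kif2b, known from testis and dividing cells, was at 0.0193 and 0.417 RPKM, within the range of the receptor genes, whose 90th percentile in NPC was 0.657.

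The same 11 genes were all tested on introns. In limma, 5 of 11 were called lower and none higher, while over all tested genes 34% were called lower and 13.2% higher. At an unadjusted p under 0.05, 7 were lower and 0 higher, but the share of all tested genes at that threshold was not taken. The median of the 11 was -0.74, which is -0.30 relative to the median of all tested genes. In 9 of the 11, both NPC replicates lay below both ESC replicates, which held for 55.5% of all tested genes. Of the 20 mitotic partner genes, 11 were called lower on introns and none higher, with a median of -0.87.

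Kif20b introns were at 10.1 and 9.59 RPKM in ESC replicates 1 and 2 and at 1.95 and 2.84 in NPC replicates 1 and 2. The groups were far apart, with a log2 fold change of -1.69 (SE 0.38, limma adjusted p = 0.00403), or -1.25 relative to the median of all tested genes. Kif11 introns were at 9.30 and 8.57 in ESC and at 2.35 and 3.59 in NPC, again without overlap (log2 fold change -1.34, SE 0.40, limma adjusted p = 0.0164). Kif15 introns were at 5.63 and 5.68 in ESC and at 1.95 and 2.75 in NPC (-1.001, SE 0.31, limma adjusted p = 0.0190). These 3 genes were also called lower with columns scaled to the same median, with voom on recovered reads, and after subtraction of the receptor gene level with rescaling, an alternative chosen after seeing the data (limma adjusted p = 0.00120 for Kif20b, 0.00557 for Kif11 and 0.0162 for Kif15). After subtraction alone Kif20b was called (limma adjusted p = 0.0156) and Kif11 and Kif15 were not (limma adjusted p = 0.0623 and 0.0967).

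Kif4 and Kif14 were called too, but not under those scalings. Kif4 introns were at 3.65 and 3.39 RPKM in ESC and at 1.68 and 1.86 in NPC (log2 fold change -0.71, limma adjusted p = 0.0226), and with columns scaled to the same median the value was -0.31 (limma adjusted p = 0.150). Kif14 introns were at 2.15 and 2.04 in ESC and at 1.11 and 1.24 in NPC (-0.51, limma adjusted p = 0.0375), and scaled to the same median at -0.11 (limma adjusted p = 0.606). Without ESC replicate 1, and likewise without ESC replicate 2, none of the 11 was called in limma, nor did any have an unadjusted p under 0.05. These fits assume that the lone ESC sample varies as the NPC replicates do. Without NPC replicate 2 the median log2 fold change of the 11 was -1.01, against -0.54 over all 29 tested members. Without NPC replicate 1 these medians were -0.52 and -0.08.

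Among the 6 mitotic genes that were not called, the NPC replicates lay far apart in several. Kif20a introns were at 16.8 and 14.1 RPKM in ESC and at 4.40 and 10.7 in NPC (log2 fold change -1.04, SE 0.63). Kif22 was at 6.96 and 6.36 in ESC and at 2.37 and 3.99 in NPC, and Kif23 at 5.47 and 4.73 against 2.15 and 3.25. In these 3 genes NPC was the lower group without overlap, and Kif22 was called with voom (-0.59, limma adjusted p = 0.0415). Kif18b was at 9.77 and 11.5 in ESC and at 4.76 and 11.2 in NPC, so that only NPC replicate 1 was low. Kif2c was at 6.35 and 6.16 in ESC and at 3.20 and 6.61 in NPC, with NPC replicate 2 above both ESC replicates. Kif18a was at 3.16 and 3.46 in ESC and at 2.13 and 3.07 in NPC. The sign of the last 3 genes depended on scaling: after subtraction and rescaling their log2 fold changes were 0.36 (Kif18b, limma adjusted p = 0.0525), 0.36 (Kif2c, limma adjusted p = 0.0254) and 0.27 (Kif18a, limma adjusted p = 0.0928). Kif2c, which fell in exons, was called higher on introns in that setting alone and lower without NPC replicate 2 (-0.79, limma adjusted p = 0.00457).

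**Figure D2:**
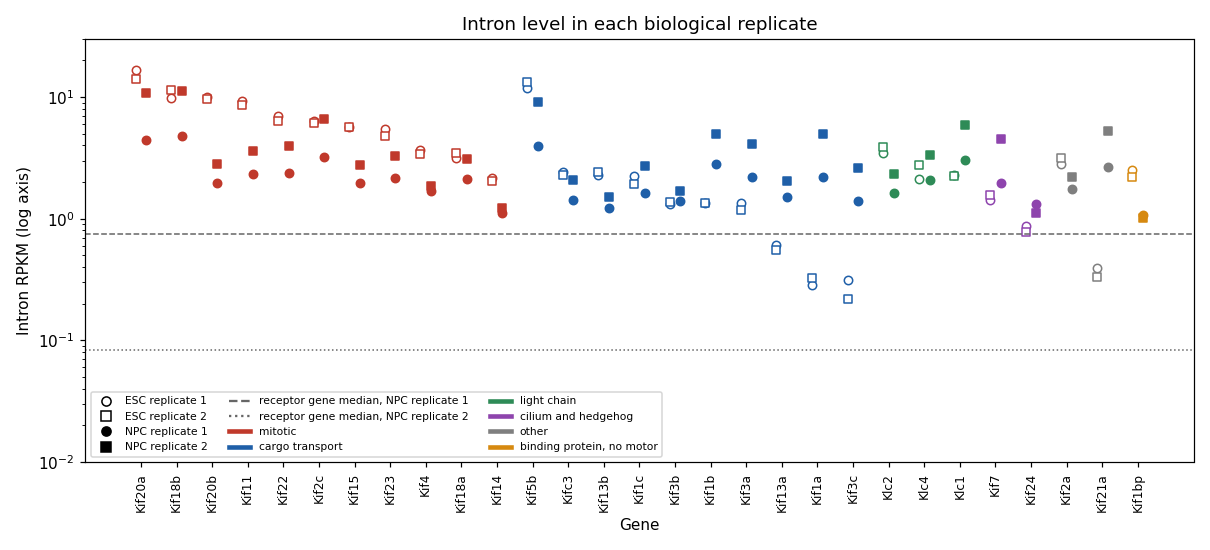
Intron RPKM (log axis) of the 29 members tested on introns in each biological replicate, open symbols for ESC and filled for NPC, with the median of receptor genes in NPC replicates 1 and 2 as dashed and dotted lines. In 27 genes NPC replicate 2 lies above NPC replicate 1, and Kif1a, Kif3c, Kif13a and Kif21a have both ESC values below the dashed line.

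Promoters are shown because the mitotic genes were lower together, and because genes of late mitosis are known to carry a cell cycle element, the CHR, often with CCAAT boxes. Windows of 250 bases before to 50 bases after the RefSeq start were at hand for 35 of the 45 members, 11 mitotic ones among them. Both strands were searched for TTTGAA or TTCGAA (the CHR) and for CCAAT, and these motifs do not overlap each other in letters. A CHR match was found in 9 of the 11 mitotic windows, in 0 of the 10 cargo transport windows, in 0 of the 3 light chain windows, in 2 of the 5 cilium and hedgehog windows, in 1 of the 5 other windows and in 19.4% of the first windows of all 27025 genes. CCAAT was found in 7 of the 11 mitotic windows, in 3 of the 10 cargo transport windows and in 37.9% of all. Both were found in 6 mitotic windows, in 2 cilium and hedgehog windows, in 1 other window and in 7.7% of all. The mitotic windows with no CHR match were those of Kif18a and of the near-silent Kif2b. A second window of Kif1a held a CHR match 44 bases upstream of its start.

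Kif11, Kif15 and Kif22 have a match close to the start, with the first base 19, 19 and 17 bases upstream, and on the opposite strand, where it reads TTCAAA. Kif15 and Kif22 each have another match, 234 and 215 bases upstream, outside the bases printed. Kif2c has it further upstream. In Kif18b, Kif20b, Kif23 and Kif4 a match begins within 20 bases after the start, which is not printed. Kif1a, Kif1b and Kif3c are shown for contrast, as cargo transport genes that rose. Kif5c, Kif16b, Kif18a and Kif26a fell in exons with no CHR match, while Kif24 had 1 and was not called. Whether matches go with a direction was not tested. Each line gives the 120 bases before the start, 5′ to 3′ on the gene's strand, in GRCm38.p6, with CHR and CCAAT matches in capitals (CCAAT reads ATTGG on the opposite strand). The genes shown were chosen after their matches were seen. A match is a string of letters and not a measured site.
Kif11, chr19:37376262-37376381, plus strand: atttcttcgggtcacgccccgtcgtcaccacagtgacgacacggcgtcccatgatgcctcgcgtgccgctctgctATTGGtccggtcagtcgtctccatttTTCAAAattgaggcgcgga
Kif15, chr9:122950961-122951080, plus strand: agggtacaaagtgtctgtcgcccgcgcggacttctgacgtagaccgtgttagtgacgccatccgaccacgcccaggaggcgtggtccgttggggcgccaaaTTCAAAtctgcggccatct
Kif22, chr7:127042421-127042540, minus strand: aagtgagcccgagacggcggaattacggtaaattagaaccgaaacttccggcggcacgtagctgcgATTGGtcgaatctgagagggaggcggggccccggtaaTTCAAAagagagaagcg
Kif2c, chr4:117178773-117178892, minus strand: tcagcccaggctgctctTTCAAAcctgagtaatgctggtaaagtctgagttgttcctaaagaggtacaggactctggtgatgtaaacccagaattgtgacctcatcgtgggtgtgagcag
Kif1a, chr1:93101875-93101994, minus strand: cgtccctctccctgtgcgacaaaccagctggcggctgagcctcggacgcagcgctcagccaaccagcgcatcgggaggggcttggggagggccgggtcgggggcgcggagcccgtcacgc
Kif1b, chr4:149307734-149307853, minus strand: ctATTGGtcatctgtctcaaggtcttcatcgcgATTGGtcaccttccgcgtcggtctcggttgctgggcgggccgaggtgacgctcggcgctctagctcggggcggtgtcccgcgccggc
Kif3c, chr12:3365012-3365131, plus strand: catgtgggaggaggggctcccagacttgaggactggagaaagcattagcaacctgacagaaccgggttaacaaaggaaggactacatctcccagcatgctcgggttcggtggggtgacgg
The 3 upper lines each carry TTCAAA close to their right end, and Kif11 and Kif22 also carry ATTGG further left. Kif1a and Kif3c carry neither motif in these bases, and Kif1b carries ATTGG at 2 places.

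Cargo transport kinesins moved in both directions. Of the 14 in exons, 7 were called higher, 6 lower and 1 (Kifc2, at 1.46 and 2.61 RPKM) neither in the authors' deposited table, and their median log2 fold change was 0.75. These shares stand beside 32.3% higher and 33.9% lower over all tested genes. Their summed level was 413 RPKM in ESC and 528 in NPC, which is 22.3% and 36.3% of the summed level of motors and light chains. On introns, where 10 were tested, 5 were called higher and 1 lower in limma, beside 13.2% and 34% of all tested genes. Of the 5, Kif1a, Kif3c and Kif13a had an ESC mean under 1 RPKM (0.306, 0.265 and 0.583) and passed the filter through NPC, where they are high, so this count supports nothing by itself. Both NPC replicates lay above both ESC replicates in 6 of the 10 and below them in 3. The 6 include Kif1a, Kif3c and Kif13a, so this count supports nothing by itself either. Over all tested genes the NPC replicates lay above in 21.9% and below in 55.5%.

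The Kif1 genes, which carry synaptic vesicle precursors and mitochondria, all rose. Kif1a, the neuronal member, was at 2.52 and 56.7 RPKM, a 20.4-fold increase in the authors' deposited table (log2 fold change 4.35, adjusted p = 3.2e-72). Kif1b was at 19.4 and 80.6 RPKM and rose by 1.91 in the authors' deposited table. Kif1c was at 17.3 and 37.1 and rose by 0.96 there. With these changes Kif1a went from 6.40% to 32.5% of the summed Kif1 level, Kif1b from 49.5% to 46.2% and Kif1c from 44.1% to 21.3%. Of the 7 neuronal markers tested, 6 were called lower in the authors' deposited table and none higher.

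Introns of the Kif1 genes followed for a pair of them. Kif1a introns were at 0.286 and 0.326 RPKM in ESC and at 2.20 and 4.93 in NPC, without overlap (log2 fold change 1.74, SE 0.26, limma adjusted p = 0.000269). Kif1a passed the filter through NPC, its ESC mean being 0.306 RPKM. Kif1b introns were at 1.35 and 1.35 in ESC and at 2.81 and 4.97 in NPC (1.02, SE 0.25, limma adjusted p = 0.00636). The call for Kif1b ended after subtraction of the receptor gene level (0.86, limma adjusted p = 0.179) and without ESC replicate 1 or 2 (limma adjusted p = 0.259 and 0.273), while that for Kif1a held under all 13 alternatives. Kif1c introns overlapped, at 2.24 and 1.93 in ESC and 1.62 and 2.73 in NPC (0.02, limma adjusted p = 0.952), and Kif1c was called higher with columns scaled to the same median (0.42, limma adjusted p = 0.04998) and after subtraction and rescaling (0.41, limma adjusted p = 0.0406). Its sign was negative after subtraction alone, without ESC replicate 2 and without NPC replicate 2.

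The Kif3 genes encode the motor that serves the cilium and axonal transport, in which Kif3a pairs with Kif3b or Kif3c. All rose in exons. Kif3a was at 19.1 and 76.1 RPKM (log2 fold change 1.84, adjusted p = 7.4e-14 in the authors' deposited table). Kif3b was at 18.7 and 34.3 (0.71, adjusted p = 0.00652 in the authors' deposited table). Kif3c, the alternative partner known from neural tissue, was at 2.30 and 25.2 (3.29, adjusted p = 2.3e-36 in the authors' deposited table). Kif3c thus went from 5.75% to 18.6% of the summed Kif3 level, and the ESC levels of Kif3a and Kif3b were nearly equal.

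On introns Kif3a was at 1.34 and 1.19 RPKM in ESC and at 2.21 and 4.14 in NPC (log2 fold change 0.84, SE 0.24, limma adjusted p = 0.0142). Kif3c was at 0.311 and 0.218 in ESC and at 1.40 and 2.59 in NPC (1.21, SE 0.21, limma adjusted p = 0.000832). Both were apart without overlap. Kif3c passed the filter through NPC, its ESC mean being 0.265 RPKM. The call for Kif3c held under all 13 alternatives. That for Kif3a ended under 5 of them, namely without a filter (limma adjusted p = 0.0695), without the trend (0.0764), after subtraction (0.290) and without ESC replicate 1 or 2 (0.222 and 0.335). Kif3b was at 1.33 and 1.38 in ESC and at 1.40 and 1.70 in NPC, a difference that was not called (0.11, limma adjusted p = 0.623). Relative to the median of all tested genes Kif3b lay at 0.55, and with columns scaled to the same median it was called higher (0.51, limma adjusted p = 0.0455).

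All 3 Kif5 genes, the heavy chains of conventional kinesin, fell. Kif5b, the form of most tissues, was at 229 and 131 RPKM and made up 94.7% and 97.1% of the summed Kif5 level (log2 fold change -0.95, adjusted p = 5.4e-05 in the authors' deposited table). The neuronal forms were low in both cell types and fell further. Kif5a was at 4.34 and 0.876 (-2.50, adjusted p = 1.1e-09 in the authors' deposited table), and Kif5c at 8.47 and 3.01 (-1.69, adjusted p = 5.2e-08 in the authors' deposited table). Kif1a and Kif3c rose while Kif5a and Kif5c, likewise known from neurons, fell. Kif5a introns were at 0.612 and 0.676 RPKM in ESC and at 0.609 and 0.167 in NPC, and Kif5c introns at 0.451 and 0.338 in ESC and at 0.891 and 0.226 in NPC, means too low for the test. Kif5b introns were at 11.9 and 13.2 RPKM in ESC and at 3.95 and 9.04 in NPC, below ESC in both replicates but not called (-0.94, SE 0.57, limma adjusted p = 0.194).

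The Kif13 genes, which move membrane cargo, went opposite ways. Kif13a was at 20.9 and 43.8 RPKM (log2 fold change 0.93 in the authors' deposited table) and Kif13b at 22.9 and 14.4 (-0.82 in the authors' deposited table). Near-equal shares in ESC, 47.7% and 52.3%, became 75.3% and 24.7% in NPC. On introns Kif13a was at 0.612 and 0.554 RPKM in ESC and 1.51 and 2.05 in NPC (0.81, SE 0.18, limma adjusted p = 0.00396). Kif13b was at 2.27 and 2.40 in ESC and 1.22 and 1.51 in NPC (-0.50, SE 0.19, limma adjusted p = 0.0495). The call for Kif13a ended after subtraction of the receptor gene level (0.55, limma adjusted p = 0.235) and without ESC replicate 1 or 2 (limma adjusted p = 0.0619 and 0.0932). The call for Kif13b ended under 11 of 13 alternatives, with columns scaled to the same median at -0.10 (limma adjusted p = 0.580).

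Of the single cargo motors, Kif16b, which moves early endosomes, was at 18.2 and 11.6 RPKM and fell by 0.79 in the authors' deposited table. Kifc3, a motor that walks to the minus end and is known from epithelial junctions, was at 29.1 and 10.7 and fell by 1.56 there. Kifc3 introns were at 2.40 and 2.29 RPKM in ESC and at 1.42 and 2.08 in NPC (-0.29, limma adjusted p = 0.267). Kif17, a motor of dendrites and cilia, had introns at 0.106 and 0.0567 RPKM in ESC and at 0.710 and 0.402 in NPC. Its NPC replicate 1 value was below the receptor gene median of that replicate, and its mean was too low to be tested.

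**Figure D3:**
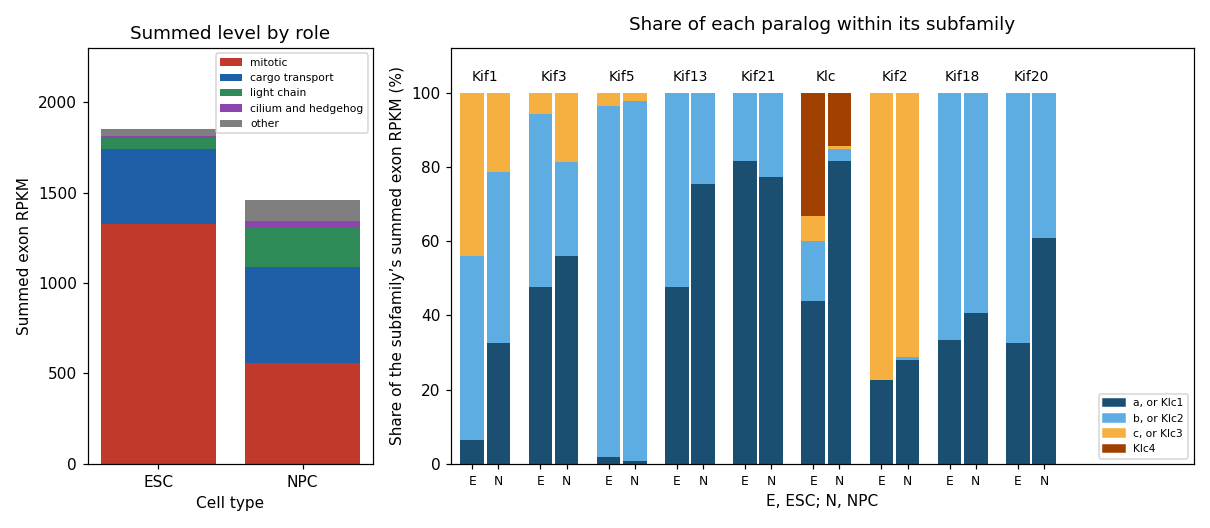
Left, exon RPKM summed by role for ESC and NPC, as stacked bars from 0 over 42 motors and light chains in the exon table. Right, the share of each paralog in the summed exon RPKM of its subfamily. Mitotic genes make up 71.8% of the ESC bar and 38.5% of the NPC bar, and the shares of Kif1a, Kif13a and Klc1 are larger in NPC.

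Light chains hold cargo to the Kif5 heavy chains, and 1 of the 4 was called in exons, beside 66.2% of all tested genes. Klc1, the neuronal and widely used form, rose from 26.0 to 179 RPKM (log2 fold change 2.61, adjusted p = 1.1e-32 in the authors' deposited table). It was the most abundant of all motors and light chains in NPC and the 13th in ESC, and its share of the light chains went from 43.9% to 81.5%. Klc2 (9.48 and 7.59 RPKM), Klc3 (3.95 and 1.63) and Klc4 (19.7 and 31.5) were not called, with adjusted p = 0.266, 0.0801 and 0.116 in the authors' deposited table.

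Klc1 introns were at 2.27 and 2.24 RPKM in ESC and at 3.06 and 5.94 in NPC, apart but not called (log2 fold change 0.71, SE 0.31, limma adjusted p = 0.0783). With columns scaled to the same median the value was 1.102 (limma adjusted p = 0.00537). Klc2 introns were at 3.46 and 3.90 in ESC and at 1.61 and 2.33 in NPC and were called lower (-0.67, limma adjusted p = 0.0437), a call that ended under 11 of 13 alternatives, that scaling among them (-0.27, limma adjusted p = 0.136). Klc4 introns overlapped, at 2.13 and 2.75 in ESC and 2.10 and 3.33 in NPC (0.10, limma adjusted p = 0.773), but were called higher with columns scaled to the same median (0.49, limma adjusted p = 0.0352). The sign of Klc4 was negative after subtraction alone, without ESC replicate 1 and without NPC replicate 2.

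Among kinesins of the cilium and the hedgehog pathway, 2 of 3 genes tested in exons were called higher and none lower. Over all tested genes 32.3% were called higher and 33.9% lower, so a count of 3 genes does not set this group apart. Kif7, which sets the tip of the cilium and passes on hedgehog signals, was at 7.95 and 21.6 RPKM (log2 fold change 1.27, adjusted p = 8.4e-06 in the authors' deposited table). Kif19a, which limits the length of motile cilia, was at 0.303 and 6.67 (4.22, adjusted p = 2.4e-16 in the authors' deposited table). Kif24, a factor of the mother centriole, was at 3.53 and 4.43 and was not called. Markers of ciliated cells ran both ways, with 2 of 4 tested called higher and 2 lower, and summed to 17.5 and 10.4 RPKM over 6 genes. Kif6, Kif9 and Kif27 were at 0.319, 0.436 and 0.219 RPKM in ESC and at 0.398, 1.20 and 0.529 in NPC, too low to be tested.

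Kif7 introns were at 1.42 and 1.55 RPKM in ESC and at 1.95 and 4.49 in NPC, without overlap but short of the threshold (log2 fold change 0.70, SE 0.28, limma adjusted p = 0.0558). It was called with columns scaled to the same median (1.09, limma adjusted p = 0.00755). Kif19a introns were at 0.112 and 0.0424 in ESC and at 1.02 and 0.753 in NPC, with a mean too low for the test. In NPC replicate 2, where receptor genes were low, the Kif19a value was still above both ESC values. Kif24 introns were at 0.866 and 0.779 in ESC and 1.33 and 1.11 in NPC (0.28, limma adjusted p = 0.202). Kif24 was called higher with voom (1.05, limma adjusted p = 0.0469). It passed the filter through NPC, its ESC mean being 0.822 RPKM. Its recovered reads are uncertain, because 2 intron lengths gave whole reads.

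The other motors held some of the largest changes. Kif21a and Kif21b, which slow microtubule growth and are known from neurons, rose from 8.07 to 73.3 and from 1.82 to 21.5 RPKM (log2 fold changes 3.03 and 3.44 in the authors' deposited table). Kif21a introns were at 0.390 and 0.332 RPKM in ESC and at 2.68 and 5.29 in NPC and were called higher (1.82, SE 0.24, limma adjusted p = 0.000142), also under all 13 alternatives. Kif21a passed the filter through NPC, its ESC mean being 0.361 RPKM. Kif21b introns, with a mean too low for the test, were at 0.107 and 0.0907 in ESC and at 1.20 and 2.00 in NPC. Kif26a, an atypical motor without ATPase activity, fell from 3.43 to 0.117 RPKM (-5.03, adjusted p = 7.9e-19 in the authors' deposited table), the largest change of any member in either direction. Its NPC exon level was below the receptor gene median of 0.279 RPKM. Its introns were at 0.511 and 0.260 in ESC and at 0.622 and 0.0841 in NPC. These NPC intron values were below or near the receptor gene medians of their replicates, 0.748 and 0.0829. Kif2a, a microtubule depolymerase not counted among the mitotic genes here, was at 21.7 and 18.6 RPKM and was not called (adjusted p = 0.261 in the authors' deposited table). Kif2a introns were at 2.84 and 3.17 in ESC and at 1.75 and 2.22 in NPC, without overlap but not called (-0.43, SE 0.23, limma adjusted p = 0.137), and the value was 0.03 after subtraction and rescaling. Kif12 (0.0114 and 0.299) and Kif26b (0.797 and 0.223) were too low to be tested.

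A pair of neighbours on each of 2 chromosomes went opposite ways. On chromosome 1 the start sites of Kif21b and Kif14, at 138027978 and 138364425 of mm9, are 336 kb apart, and Kif21b rose while Kif14 fell. Of the 4 tested genes between them 1 was called higher and none lower in the authors' deposited table. On chromosome 12 Klc1 and Kif26a start at 112997060 and 113384419, 387 kb apart, and Klc1 rose while Kif26a fell. Of the 4 tested genes between these, 2 were called higher and none lower in the authors' deposited table. No other pair of members had start sites within 500 kb.

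Kif1bp was the 1 member called in both readouts with opposite directions. Its exons were at 22.6 and 45.6 RPKM (log2 fold change 0.87, adjusted p = 0.00178 in the authors' deposited table). Its introns were at 2.51 and 2.22 RPKM in ESC and at 1.07 and 1.00 in NPC (-0.72, SE 0.18, limma adjusted p = 0.00743). The intron call ended with columns scaled to the same median (-0.33, limma adjusted p = 0.215) and with voom (limma adjusted p = 0.111). An antisense gene, 4933428P19Rik, overlaps Kif1bp in the annotation.

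Exon and intron changes had the same sign in 28 of the 29 members tested in both, and 12 were called in both in 1 direction. Of all 8380 genes tested in both, 80.8% had the same sign and 38.4% were called in both in 1 direction. Both readouts come from the same libraries. Across these 29 genes, which are not independent replicates, Pearson's r was 0.918 and Spearman's rho 0.834, against 0.804 and 0.831 across all 8380 genes. After subtraction of the receptor gene level and rescaling, 23 of the 29 had the same sign. In that setting 13 members were called higher and 4 lower on introns, in place of 6 and 8. Over all genes 31.6% were then called higher and 30.4% lower, 62% in either direction.

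**Figure D4:**
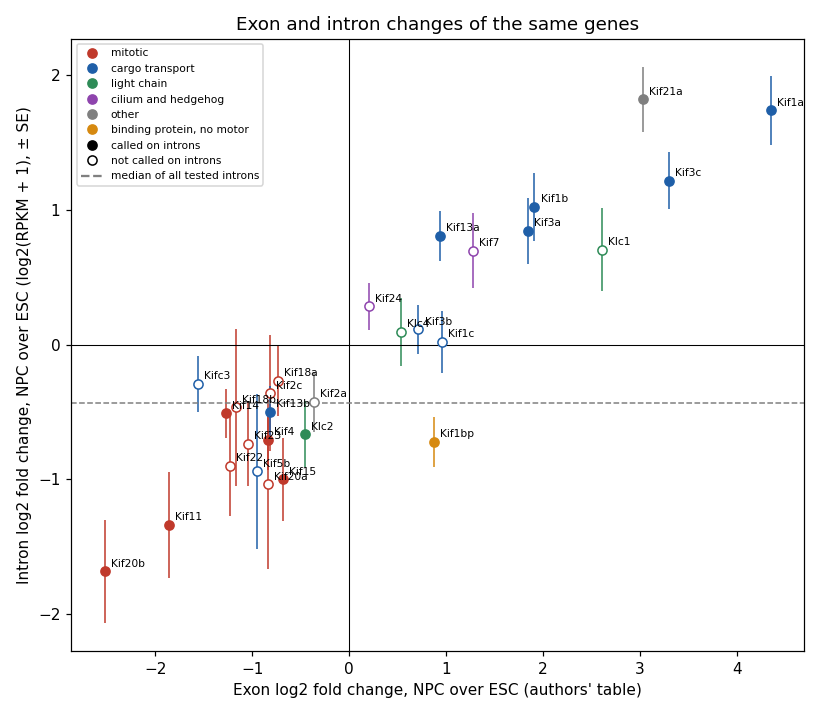
Exon log2 fold change from the authors' deposited table (horizontal) against intron log2 fold change on the log2(RPKM + 1) scale (vertical, bars ± SE) for the 29 members tested in both, filled where called on introns, with a dashed line at the median of all tested introns (-0.43). Kif20b and Kif11 lie lowest, Kif21a and Kif1a highest, and Kif1bp alone lies in the lower right.

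The 14 members too low for the intron test showed how far NPC replicate 1 stood apart. Their values in that replicate ran from 0.285 to 1.20 RPKM with a median of 0.892, near the receptor gene median of 0.748. In NPC replicate 2 the median was 0.245. In 13 of these 14 genes NPC replicate 1 was above replicate 2, Kif21b being the exception, whereas 27 of the 29 tested members had replicate 2 above replicate 1. The tested exceptions were Kif24 and Kif1bp. The part of this offset in the intron results was tested only through the alternatives given beside them.

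Other genes of the same processes were counted from lists, and their counts stand beside 32.3% higher and 33.9% lower over all tested genes. Of 19 tested mitotic partners, which bind, load or regulate spindle motors, 13 were called lower and 1 higher in the authors' deposited table, with a median log2 fold change of -0.96. The largest were Ect2 (151 and 40.8 RPKM), the activator of the cleavage furrow, Aurka (174 and 55.2), the spindle pole kinase, Hmmr (169 and 60.6), Kntc1 (31.7 and 11.7) and Incenp (134 and 49.7), a subunit of the chromosomal passenger complex. Numa1, which focuses spindle poles, rose from 86.0 to 172 RPKM and was picked out after its value was seen. Cenpe, a kinesin whose symbol does not fall under the naming rule and likewise picked out later, was at 119 and 90.6 RPKM (log2 fold change -0.55, adjusted p = 0.0278 in the authors' deposited table).

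Of 18 tested cargo adaptors, 11 were called higher and 2 lower in the authors' deposited table, with a median of 1.38. Fez1, which links cargo to conventional kinesin, rose from 23.2 to 765 RPKM, Sybu from 0.143 to 5.55, Plekhm2, an adaptor of lysosomes, from 2.96 to 25.1 and Grip1 from 1.01 to 8.42. Jakmip1 fell from 5.77 to 0.142. Of 19 tested genes of dynein and dynactin, the motor of the opposite direction and its activator, 9 were called higher and 1 (Dync1li1, named after its value was seen) lower in the authors' deposited table, with a median of 0.37. Dynlt3 rose from 74.1 to 238 RPKM, and the dynein adaptors Bicd1 and Bicd2 rose from 5.29 to 12.2 and from 17.0 to 37.7.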

How the data were processed

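RNA was measured in 8 libraries, 2 technical libraries for each of 2 biological replicates of ESC and of NPC. The authors deposited 2 tables. The exon table holds RPKM pooled per cell type, with log2 fold changes (NPC against ESC) and adjusted p-values of the authors, per the file headers. The submitters' processing notes name DESeq2 1.10.0 and mm9. For the aligner, the counter and its use of strand, details were not given in the sources used here. Exon calls are the authors' adjusted p-values under 0.05 among genes whose mean RPKM reached 1. Of its rows, 84 carried no gene name and were left out.

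The deposited intron table names no unit and holds 1 value per biological replicate. RPKM was inferred from its values, which gave whole reads within 0.001 for 100% of 18447 genes above 0. The values imply denominators of 5767704 reads (ESC replicate 1), 6500767 (ESC replicate 2), 5792056 (NPC replicate 1) and 5186790 (NPC replicate 2). Intron values were tested as log2(RPKM + 1) with limma 3.58.1 in R 4.3.3 (mean-variance trend, Benjamini-Hochberg adjustment over all genes whose mean reached 1 RPKM). Fold changes on this scale understate the change of low genes. The step was also run on simulated data. These held no offset between columns and only changes larger than those of the members, so that run does not bear on the calls given here. The labels do not say whether replicates are separate cultures, so p-values measure the spread between these samples only.

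Alternatives were the filter, the pseudocount, the threshold, the trend, scaling, subtraction of the receptor gene level, voom on recovered reads, the replicate block and each replicate left out. One, the subtraction followed by rescaling to equal sums, was chosen after seeing the data. The members and lists were chosen with earlier results of these data known. Values by cell type and replicate are given for members called in exons with at least 1 log2 unit or tested on introns, and partner genes are named by the 5 largest called changes of a list. Promoter windows are RefSeq's on GRCm38.p6 and were matched by symbol. Their coordinates were not compared with the mm9 positions of the tables.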

Additional observations from a re-analysis of the deposited data

How the results depend on the processing

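Exon counts of called members stayed within 1.5 times under each filter, at a threshold of 0.01 and with RPKM ratios, from 27 to 32 of all members against 31. Intron counts moved more. Against 14 called members, subtraction of the receptor gene level alone gave 5, with 1 mitotic (against 5) and 2 cargo transport (against 6). Mitotic calls were 3 without a filter and 3 with columns scaled to the same median. Leaving out 1 replicate gave 3 to 25 called members, 0 to 11 mitotic and 2 to 8 cargo transport, with the low counts without an ESC replicate and the high ones without NPC replicate 2. The share called over all genes was not taken for these fits, and the causes were not tested. Of the 14 called genes, Kif1a, Kif3c and Kif21a were called under all 13 alternatives, and the other 11 lost their call without either ESC replicate. Kif1a, Kif3c and Kif21a passed the filter through NPC (ESC means 0.306, 0.265 and 0.361 RPKM), so this supports nothing by itself. Scaling to the same median gave 11 members higher and 3 lower and voom 10 and 4, against 6 and 8. For these 2 settings the share over all genes was not taken. Subtraction with rescaling gave 13 and 4, beside 31.6% and 30.4% over all genes, where the report's test gave 13.2% and 34%.

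Signs of log2 fold changes turned in genes that the report's test did not call. With columns scaled to the same median the values were 0.126 for Kif18a, 0.036 for Kif2c and 0.104 for Kifc3, and with voom 0.143, 0.089 and 0.067. After subtraction alone they were -0.234 for Kif1c, -0.014 for Kif24, -0.169 for Kif3b and -0.111 for Klc4. After subtraction and rescaling they were 0.274 for Kif18a, 0.364 for Kif18b, 0.027 for Kif2a, 0.357 for Kif2c and 0.038 for Kifc3. Leaving out 1 replicate gave ranges of -1.009 to 0.077 for Kif18b, -0.789 to 0.068 for Kif2c, -0.236 to 0.273 for Kif1c and -0.147 to 0.338 for Klc4.

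With the replicate block, 12 members were called, 4 mitotic and 5 cargo transport. The replicate numbers did not pair the samples (correlation of the deviations 0.019). Intron values near that of 3 reads, 0.0461 to 0.0578 RPKM for 10 kb of introns, are limited by depth, counting error only.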
